A study of Homo sapiens with 8 samples.

Results

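The 34 genes described here encode the folding machinery of the endoplasmic reticulum (ER) and the sensors of the unfolded protein response (UPR). They were taken from a fixed list of ER chaperones, oxidoreductases, ER-associated degradation (ERAD) factors and stress sensors, and 34 of 34 were found among the 13546 genes of the deposited count table. The RNA came from tumours that MDA-MB-231 cells, a human triple negative breast cancer line, formed in nude mice, which lack T cells but keep other host cells. Tumours of CDK4KO cells gave 4 libraries and tumours of CDK4WT cells gave 4, with library totals of 30057019 to 33307113 counts for CDK4KO and 27840883 to 33617977 counts for CDK4WT. CDK4 is a cyclin D-dependent kinase of the G1 phase. The sources used here do not say how CDK4 was disrupted, whether the CDK4KO cells are 1 clone, how old the mice were or whether each library came from a different mouse, so p-values measure the spread between these libraries.

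Proteins that enter the ER are folded by lumenal Hsp70 and Hsp90 chaperones, by lectin chaperones that read their glycans and by disulfide isomerases, and those that fail are pulled back to the cytosol by ERAD. When unfolded proteins build up, the sensors IRE1 (ERN1), PERK (EIF2AK3) and ATF6 are released from the chaperone BiP (HSPA5). IRE1 splices XBP1 mRNA, PERK slows translation and raises ATF4, and ATF6 is cleaved into a transcription factor, so that chaperone and ERAD genes are induced. Much of this signalling, the splicing of XBP1 and the phosphorylation of the sensors included, cannot be read from gene counts.

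The induction of these genes is carried by short promoter elements, shown here because genes with and without the first 2 kinds are set side by side below. The ER stress element (ERSE) is CCAAT, 9 bases and CCACG, the related ERSE-II is ATTGG, 1 base and CCACG, and the core of the unfolded protein response element (UPRE) is TGACGTGG. These letters were searched on both strands of RefSeq promoters (GRCh38.p14, from 250 bases before to 50 bases after each gene start), which were available for 32 of the 34 genes, all but PDIA3 and DERL1. An exact ERSE was present for 8 genes, HSPA5, HSP90B1, CALR, CANX, PDIA6, CRELD2, XBP1 and ERO1B, while 0.0916% of 27305 genes with promoters hold one. An ERSE-II was present for SDF2L1, HYOU1 and HERPUD1 (0.0696% of the 27305 genes), and the UPRE core for DNAJC10 and HYOU1 (0.927% of the 27305 genes). In all, 12 of the 32 genes hold at least 1 of the elements. HYOU1 has 2 ERSE-II copies with the same letters, listed once below, and the UPRE core overlaps 1 of them. HSP90B1 has 2 ERSE copies. A match is a description of the letters in this window and does not show that a factor binds there. The elements below are read on the strand where the motif runs forward, with the fixed bases in capitals.
HSPA5: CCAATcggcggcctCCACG
HSP90B1: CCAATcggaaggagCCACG
HSP90B1, second copy: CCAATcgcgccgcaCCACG
CALR: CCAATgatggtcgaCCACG
CANX: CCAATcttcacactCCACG
PDIA6: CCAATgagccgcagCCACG
CRELD2: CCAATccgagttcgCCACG
XBP1: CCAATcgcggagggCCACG
ERO1B: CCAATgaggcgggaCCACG
SDF2L1: ATTGGtCCACG
HYOU1: ATTGGaCCACG
HERPUD1: ATTGGgCCACG

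The whole promoter windows of HSPA5, HYOU1 and HERPUD1 show where the elements sit. They are written 5′ to 3′ on the strand of the gene, with the motif matches in capitals, so that an ERSE-II on the other strand appears as CGTGG, 1 base and CCAAT. The HSPA5 window is chr9:125241294-125241593 on the minus strand, with the ERSE from 66 to 48 bases before the start. The HYOU1 window is chr11:119057156-119057455 on the minus strand, and its first run of capitals holds the UPRE core and the ERSE-II that overlap. The HERPUD1 window is chr16:56931892-56932191 on the plus strand.
HSPA5: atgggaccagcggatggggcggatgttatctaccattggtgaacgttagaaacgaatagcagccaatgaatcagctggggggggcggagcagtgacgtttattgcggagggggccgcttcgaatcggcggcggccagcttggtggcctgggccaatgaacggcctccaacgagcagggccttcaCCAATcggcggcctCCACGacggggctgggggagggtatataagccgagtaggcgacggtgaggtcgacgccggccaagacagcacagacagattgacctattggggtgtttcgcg
HYOU1: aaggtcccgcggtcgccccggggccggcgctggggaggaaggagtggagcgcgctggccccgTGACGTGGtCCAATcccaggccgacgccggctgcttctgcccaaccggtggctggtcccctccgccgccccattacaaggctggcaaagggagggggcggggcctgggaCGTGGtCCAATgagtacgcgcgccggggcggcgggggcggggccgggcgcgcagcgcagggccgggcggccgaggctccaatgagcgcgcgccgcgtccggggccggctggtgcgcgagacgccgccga
HERPUD1: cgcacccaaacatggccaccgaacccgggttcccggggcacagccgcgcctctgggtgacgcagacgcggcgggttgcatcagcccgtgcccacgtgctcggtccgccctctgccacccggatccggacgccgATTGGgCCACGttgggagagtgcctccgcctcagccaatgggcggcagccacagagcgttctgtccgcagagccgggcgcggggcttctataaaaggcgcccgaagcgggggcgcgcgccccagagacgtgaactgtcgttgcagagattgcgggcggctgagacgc

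None of the 34 genes passed the comparison of CDK4KO with CDK4WT tumours. With edgeR's quasi-likelihood test and Benjamini-Hochberg adjustment over all 13546 genes, 0 of 34 had an adjusted p under 0.05, and the smallest adjusted p was 0.368, while 8 genes of the whole table passed (0.0591%). DESeq2 called 0 of the 34, against 315 genes in all (2.33%), and limma voom with quality weights called 0, against 285 genes in all (2.1%). At an unadjusted p under 0.05, HYOU1 and ERO1B were higher and ERO1A and EDEM2 were lower in CDK4KO tumours. That is 2 of 34 in each direction, where 6.64% of all genes were higher and 6.33% lower, so the share is near that of the table. ERO1B was the 1 gene whose genotypes did not overlap, higher in CDK4KO, where 3.87% of all genes were separated in that direction and 3.81% in the other, in which 0 of the 34 were.

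The differences were small and of both signs. Log2 fold changes (CDK4KO minus CDK4WT) were positive for 18 genes and negative for 16, from -0.27 to 0.21, with a median of 0.012 against 0.004 over all genes. For 33 of 34 genes the whole 95% interval lay within 0.5 of 0 on the log2 scale, as it did for 10390 of all 13546 genes, and the median half-width of the interval was 0.17 for the list and 0.2 for all genes. Counts were scaled to a common library total with TMM factors. Together the 34 genes took 0.868% to 0.921% of that total in CDK4KO tumours, against 0.849% to 0.951% in CDK4WT tumours. These are not shares of the unscaled counts. A p above the threshold does not show that the levels are equal, and the intervals give the differences that remain possible.

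**Figure D1:**
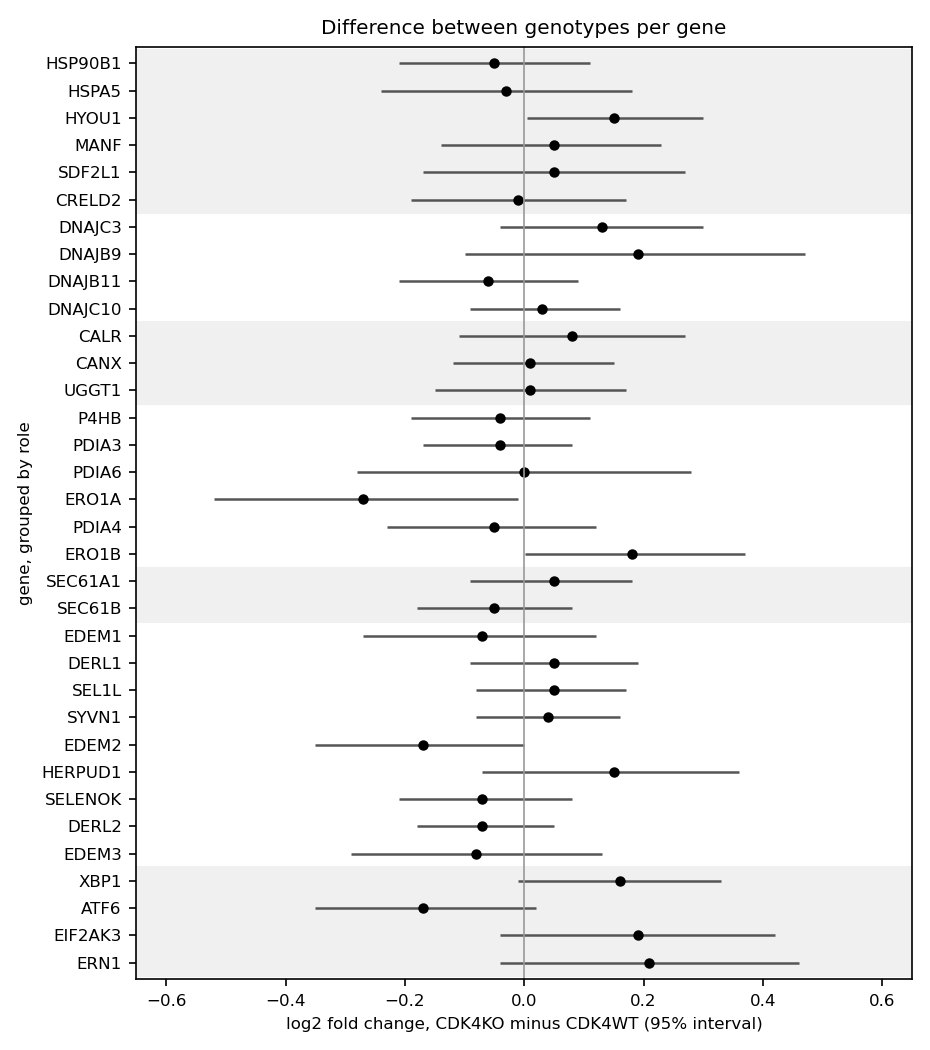
Log2 fold change, CDK4KO minus CDK4WT, of the 34 genes with the 95% interval of edgeR's quasi-likelihood fit, 1 row per gene, grouped by role with alternating shading (from the top: lumenal Hsp70 and Hsp90 and partners, J-domain co-chaperones, lectin chaperones, disulfide isomerases and oxidases, translocon, ERAD, stress sensors and XBP1). Points lie between -0.27 and 0.21, and the ERO1A interval alone reaches past 0.5 from 0.

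CDK4 itself had 110.6 to 133.5 CPM (counts scaled to a common library total with TMM factors) in CDK4KO tumours and 107.1 to 116.4 CPM in CDK4WT tumours, with a log2 fold change of 0.12 ± 0.06 (SE, adjusted p = 0.477, edgeR), so CDK4 counts give no check of the CDK4KO label, and they do not show whether a disrupted transcript is made. CDK4KO replicates 1 and 4 varied most from their group and had voom quality weights of 0.382 and 0.424, against 0.647 to 3 for the others. Leaving out CDK4KO replicate 1 brought the adjusted calls over all genes to 183 (1.35%) with 0 of the 34 among them. Leaving out both, an alternative chosen after the data were seen, gave 447 genes (3.3%), among which 1 of the 34, ATF6, passed.

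Markers of host and tumour cells were summed per library because reads of mouse cells may be among the counts. The 9 measured of 10 endothelial markers summed to 402.3 to 468.1 CPM in CDK4KO tumours, against 339.8 to 380.9 CPM in CDK4WT tumours (exact permutation p = 0.0286, two-sided, the smallest that 4 against 4 can give). ESAM, ROBO4 and MMRN2 are among the 9, and CDH5 was the marker not measured. The lists were chosen with earlier results of these data known, so the p-values of this paragraph are descriptions. Fat markers, 4 measured of 8, summed to 19.1 to 22.4 CPM in CDK4KO and 23.2 to 31.0 CPM in CDK4WT (exact permutation p = 0.0286). The 4 were PLIN1, LPL, PPARG and LIPE. With ADIPOQ, FABP4, LEP and CIDEC absent, this sum does not show whether fat cells differed between genotypes. Fibroblast and pericyte markers, 6 measured of 10, ranged over 688.8 to 1189.4 CPM in CDK4KO and 784.5 to 1203.9 CPM in CDK4WT (exact permutation p = 0.857), those of leukocytes, 5 measured of 10, over 20.3 to 22.0 CPM and 16.6 to 28.4 CPM in CDK4KO and CDK4WT (exact permutation p = 0.714), and those of muscle, 3 measured of 10, over 6.58 to 14.1 CPM and 9.94 to 31.9 CPM in CDK4KO and CDK4WT (exact permutation p = 0.0571). Of 7 markers of antibody-secreting cells, whose ER is large, SDC1 alone was in the table. It had 155.0 to 210.1 CPM in CDK4KO and 211.7 to 237.3 CPM in CDK4WT (exact permutation p = 0.0286). With the others absent, SDC1 does not show that such cells were present or differed between genotypes. All 10 MDA-MB-231 markers were measured and summed to 12648 to 16868 CPM in CDK4KO and 14145 to 16686 CPM in CDK4WT (exact permutation p = 0.457). The part of these cells in the values of the 34 genes was not tested, and in bulk RNA fewer cells of a type and less RNA per cell cannot be told apart.

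**Figure D2:**
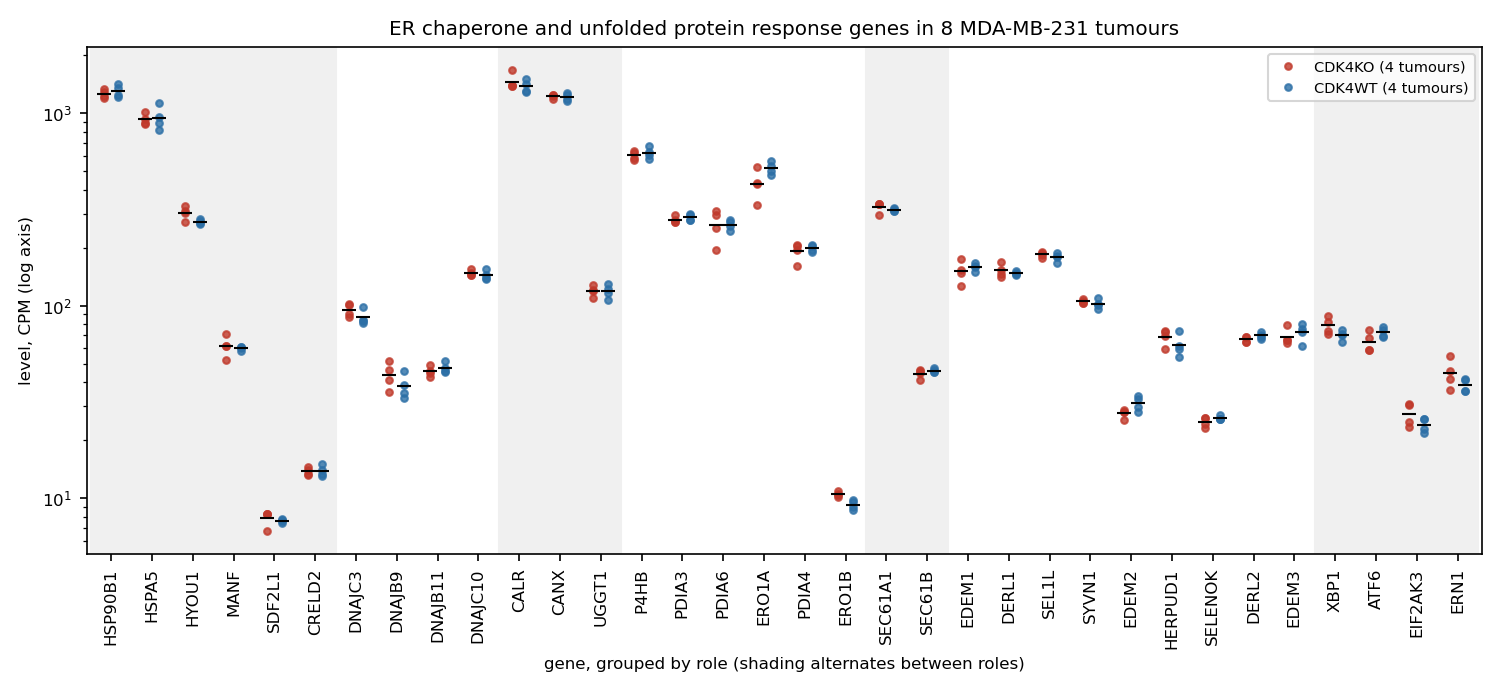
Level of each of the 34 genes in every tumour, in CPM on a log axis, with 4 CDK4KO tumours left and 4 CDK4WT tumours right of each gene and a black bar at each mean. The groups overlap for every gene but ERO1B, and the widest spreads within a genotype are those of PDIA6 and ERO1A in CDK4KO.

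The lumenal Hsp70 and Hsp90 chaperones were among the most abundant mRNAs of the list. Per length, in TPM (counts per exon length, scaled to a common total) over all 8 tumours, CALR was highest at 2076 TPM, followed by HSP90B1 at 1088 TPM, HSPA5 at 955 TPM, CANX at 777 TPM and P4HB at 460.1 TPM, and the lowest were CRELD2 at 10.7 TPM and ERO1B at 7.36 TPM. HSPA5 (BiP, ENSG00000044574), the lumenal Hsp70 and the usual marker of the UPR, had 890.4, 929, 1007 and 878 CPM in CDK4KO replicates 1 to 4, against 889, 816, 948 and 1125 CPM in CDK4WT replicates 1 to 4. The highest and the lowest value are both CDK4WT, replicates 4 and 2, and all CDK4KO values lie between them. Its log2 fold change was -0.03 ± 0.10 (SE) with a 95% interval of -0.24 to 0.18, that is, a fold of 0.85 to 1.14 (adjusted p = 0.93, edgeR).

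HSP90B1 (GRP94, ENSG00000166598), the ER Hsp90, had 1330.3, 1220.3, 1195 and 1283 CPM in CDK4KO tumours, against 1241, 1204, 1352 and 1413 CPM in CDK4WT tumours, and a log2 fold change of -0.05 ± 0.07 (SE, adjusted p = 0.805, edgeR). HYOU1 (GRP170, ENSG00000149428), an Hsp110-type nucleotide exchange factor for BiP, had 270.1, 310.1, 327 and 302 CPM in CDK4KO tumours, against 275, 269.5, 281 and 264 CPM in CDK4WT tumours. CDK4KO replicates 2, 3 and 4 were above every CDK4WT value, and CDK4KO replicate 1 lay among them. The log2 fold change was 0.15 ± 0.07 (SE) with an unadjusted p of 0.0439 and an adjusted p of 0.368 in edgeR, and without CDK4KO replicate 1 it was 0.20 with an adjusted p of 0.118.

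SDF2L1 (ENSG00000128228), a stress-induced partner of BiP and its J-domain proteins, was low in CPM, with 6.8, 8.3, 8.29 and 8.27 CPM in CDK4KO tumours, against 7.75, 7.85, 7.64 and 7.42 CPM in CDK4WT tumours. CDK4KO replicate 1 was the lowest library and the other CDK4KO libraries were above every CDK4WT value. MANF, a secreted ER stress protein, ranged over 52.5 to 71.6 CPM in CDK4KO tumours and 58.2 to 60.8 CPM in CDK4WT tumours (log2 fold change 0.05 ± 0.08, SE). CRELD2, a secreted ER stress protein with EGF-like repeats, ranged over 13.2 to 14.5 CPM in CDK4KO and 13.1 to 15.1 CPM in CDK4WT (log2 fold change -0.01 ± 0.08, SE). Of the 6 genes of this group 3 had a positive and 3 a negative log2 fold change, with a median of 0.017.

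The J-domain proteins, which hand clients to BiP and start its ATPase, gave 3 positive and 1 negative log2 fold change, with a median of 0.082. DNAJB9 (ERdj4, ENSG00000128590), which also holds IRE1 in check with BiP, had 40.9, 46.3, 51.7 and 35.5 CPM in CDK4KO tumours, against 35.4, 33.0, 38.8 and 46.0 CPM in CDK4WT tumours. Both genotypes spanned a wide and overlapping range, and the log2 fold change was 0.19 ± 0.13 (SE), with a 95% interval of -0.10 to 0.47 (adjusted p = 0.576, edgeR). It was 0.09 without CDK4KO replicate 3 and 0.12 without CDK4WT replicate 2. DNAJC3 (p58IPK, ENSG00000102580), a co-chaperone of BiP, had 87.7, 90.6, 102.4 and 100.8 CPM in CDK4KO tumours, against 81.6, 84.6, 83.2 and 98.5 CPM in CDK4WT tumours. CDK4WT replicate 4 alone reached the CDK4KO range, and the log2 fold change was 0.13 ± 0.08 (SE, adjusted p = 0.507, edgeR). DNAJB11 (ERdj3) ranged over 42.5 to 49.0 CPM in CDK4KO and 45.3 to 51.5 CPM in CDK4WT, and DNAJC10 (ERdj5), a J-domain disulfide reductase, over 143.5 to 154.4 CPM in CDK4KO and 137.8 to 154.2 CPM in CDK4WT.

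Calreticulin and calnexin hold newly made glycoproteins, and UGGT1 marks those still unfolded for another round. CALR (ENSG00000179218) had 1669, 1389, 1380 and 1372 CPM in CDK4KO tumours, against 1282, 1301, 1405 and 1506 CPM in CDK4WT tumours. CDK4KO replicate 1 was the highest library and the other CDK4KO libraries lay inside the CDK4WT range, with a log2 fold change of 0.08 ± 0.09 (SE, adjusted p = 0.728, edgeR) that was 0.01 without CDK4KO replicate 1. CANX ranged over 1175 to 1240.3 CPM in CDK4KO and 1157 to 1268 CPM in CDK4WT, and UGGT1 over 109.3 to 128.4 CPM in CDK4KO and 106.5 to 129.7 CPM in CDK4WT, each with a log2 fold change of 0.01.

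The 6 disulfide isomerases and oxidases had 1 positive and 5 negative log2 fold changes, with a median of -0.043. ERO1A (ENSG00000197930), the oxidase that recharges protein disulfide isomerase and that hypoxia is known to induce, had 522, 434, 429 and 334 CPM in CDK4KO tumours, against 478, 499, 528 and 562 CPM in CDK4WT tumours. CDK4KO replicates 2, 3 and 4 were below every CDK4WT value and CDK4KO replicate 1 lay among them. The log2 fold change of -0.27 ± 0.12 (SE), with a 95% interval of -0.52 to -0.01, was the most negative of the list, with an unadjusted p of 0.0438 and an adjusted p of 0.368 in edgeR. Without CDK4KO replicate 4 it was -0.16, and without CDK4KO replicate 1 it was -0.37 (adjusted p = 0.0934, edgeR).

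The hypoxia list had the direction of ERO1A. Its mean log2 CPM, which does not include ERO1A, was 7.05, 6.90, 6.73 and 6.68 in CDK4KO replicates 1 to 4, against 7.12, 7.18, 7.36 and 7.61 in CDK4WT replicates 1 to 4. ERO1A was lowest in the library with the lowest hypoxia mean, CDK4KO replicate 4, and highest in the library with the highest, CDK4WT replicate 4. The order was not the same throughout. CDK4KO replicate 1, with 522 CPM, was above CDK4WT replicates 1 and 2 (478 and 499 CPM), whose hypoxia means were higher. Of 27 hypoxia genes measured, 26 had a negative log2 fold change, with a median of -0.50 against 0.004 over all genes. In edgeR 0 of them passed at an adjusted p of 0.05 and 22 were lower at an unadjusted p under 0.05, where 6.33% of all genes were. DESeq2 called 14 (2.33% of all genes) and limma voom 9 (2.1% of all genes). The hypoxia genes with the smallest p were PFKFB4, PFKFB3 and CA9, at log2 fold changes of -0.77 ± 0.13, -0.76 ± 0.13 and -1.26 ± 0.21 (SE) and adjusted p of 0.0634, 0.0634 and 0.0648 in edgeR. The 20 measured genes nearest to ERO1A had a median log2 fold change of -0.07, and 14 of 20 were negative. As log2 deviations from the mean of 8 libraries, their medians were 0.21, -0.03, -0.06 and -0.28 in CDK4KO replicates 1 to 4. Those of ERO1A were 0.16, -0.11, -0.13 and -0.49. In CDK4WT replicates 1 to 4 the medians were 0.06, 0.1, 0.04 and 0.0, against 0.03, 0.09, 0.17 and 0.26 for ERO1A. The parts of hypoxia and of the neighbourhood in the ERO1A values were not tested.

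ERO1B (ENSG00000086619), the second ER oxidase and the lowest gene of the list per length, had 10.9, 10.4, 10.5 and 10.2 CPM in CDK4KO tumours, against 9.02, 8.7, 9.76 and 9.53 CPM in CDK4WT tumours. Every CDK4KO value was above every CDK4WT value, and the log2 fold change was 0.18 ± 0.08 (SE) with an unadjusted p of 0.0492 and an adjusted p of 0.383 in edgeR. PDIA6 (P5), an isomerase that also acts on IRE1, had 310.2, 296, 251 and 193 CPM in CDK4KO tumours, against 271, 258, 279 and 244.5 CPM in CDK4WT tumours. The means were alike, but the SD of log2 CPM was 0.31 in CDK4KO and 0.08 in CDK4WT. The log2 deviations of PDIA6 were 0.25, 0.18, -0.05 and -0.43 in CDK4KO replicates 1 to 4. The 20 nearest genes had median deviations of 0.09, 0.11, 0.03 and -0.36 in the same libraries. In CDK4WT replicates 1 to 4 those of the neighbours were 0.05, 0.04, 0.06 and -0.06. The part of the neighbourhood in the PDIA6 values was not tested. PDIA4 (ERp72) ranged over 161.4 to 207.0 CPM in CDK4KO, with CDK4KO replicate 1 lowest, and 189.8 to 205.8 CPM in CDK4WT. In CDK4KO replicate 1 its log2 deviation was -0.27 and the median of its 20 nearest genes was -0.20. P4HB, the founding protein disulfide isomerase, ranged over 569.0 to 637.0 CPM in CDK4KO and 576.1 to 675.1 CPM in CDK4WT, and PDIA3 (ERp57), the partner of the lectin chaperones, over 270.7 to 296.1 CPM in CDK4KO and 278.9 to 300.2 CPM in CDK4WT. Exons of PDIA6 and PDIA3 overlap genes of the opposite strand over 25.2% and 14.8% of their length, the strand setting of the counting is not stated, and a processed pseudogene of PDIA3 is counted as a gene of its own, so reads could be split.

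**Figure D3:**
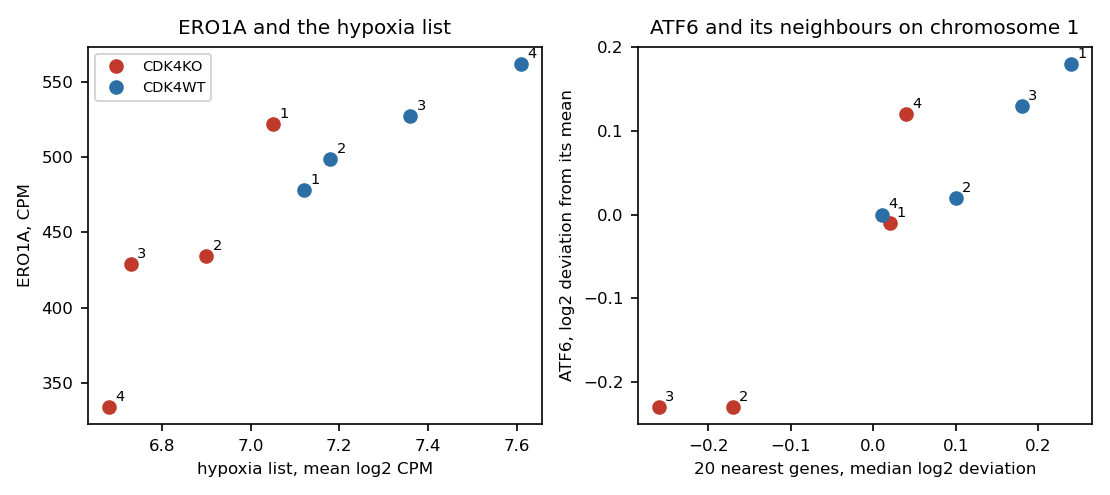
Left, ERO1A in CPM against the mean log2 CPM of the hypoxia list. Right, ATF6 against the median of its 20 nearest genes on chromosome 1, both as log2 deviations from the mean of 8 libraries. Each point is 1 tumour with its replicate number, CDK4KO in red and CDK4WT in blue. ERO1A is lowest in CDK4KO replicate 4 and highest in CDK4WT replicate 4, and ATF6 and its neighbours are both lowest in CDK4KO replicates 2 and 3.

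At the translocon, through which chains enter the ER, SEC61A1 ranged over 294.5 to 338.7 CPM in CDK4KO, with CDK4KO replicate 1 lowest, and 311.4 to 322.1 CPM in CDK4WT (log2 fold change 0.05 ± 0.06, SE). SEC61B, a small subunit of the same channel, ranged over 41.2 to 46.2 CPM in CDK4KO and 45.0 to 47.7 CPM in CDK4WT (log2 fold change -0.05 ± 0.06, SE).

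The 9 ERAD genes had 4 positive and 5 negative log2 fold changes, with a median of -0.067. HERPUD1 (HERP, ENSG00000051108), a stress-induced organiser of the retrotranslocation complex, had 69.5, 73.3, 73.8 and 59.5 CPM in CDK4KO tumours, against 54.2, 59.9, 61.9 and 73.6 CPM in CDK4WT tumours. The ranges overlapped over most of their width, and only CDK4KO replicate 3 and CDK4WT replicate 1 lay outside the range of the other genotype. The log2 fold change was 0.15 ± 0.10 (SE, adjusted p = 0.572, edgeR), and it was 0.08 without CDK4WT replicate 1 and 0.23 without CDK4WT replicate 4. EDEM2 (ENSG00000088298), which starts the mannose trimming that marks glycoproteins for disposal, had 28.1, 25.6, 28.9 and 28.0 CPM in CDK4KO tumours, against 33.8, 28.0, 32.9 and 29.8 CPM in CDK4WT tumours. Its genotypes overlapped through CDK4WT replicate 2, and the log2 fold change was -0.17 ± 0.08 (SE) with an unadjusted p of 0.0494 and an adjusted p of 0.383 in edgeR.

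DERL2 (ENSG00000072849), a rhomboid-like protein of the retrotranslocation complex, had 68.8, 68.7, 64.9 and 64.8 CPM in CDK4KO tumours, against 67.2, 70.7, 68.9 and 73.0 CPM in CDK4WT tumours. SELENOK (ENSG00000113811), a selenoprotein bound to the derlins, had 24.4, 26.0, 26.1 and 23.3 CPM in CDK4KO tumours, against 25.7, 27.2, 25.9 and 25.9 CPM in CDK4WT tumours. Both overlapped between genotypes, each with a log2 fold change of -0.07. The ubiquitin ligase SYVN1 (HRD1) ranged over 102.7 to 108.4 CPM in CDK4KO and 96.6 to 109.6 CPM in CDK4WT, its adaptor SEL1L over 175.9 to 190.8 CPM in CDK4KO and 167.1 to 188.1 CPM in CDK4WT, and DERL1 over 140.3 to 169.4 CPM in CDK4KO and 143.7 to 151.3 CPM in CDK4WT, with log2 fold changes of 0.04, 0.05 and 0.05. The mannosidase EDEM1 ranged over 126.5 to 174.9 CPM in CDK4KO and 149.4 to 167.3 CPM in CDK4WT, and EDEM3 over 63.9 to 79.6 CPM in CDK4KO and 61.7 to 80.7 CPM in CDK4WT, with log2 fold changes of -0.07 and -0.08.

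Of the 3 sensors and XBP1, 3 had a positive log2 fold change and ATF6 a negative one, with a median of 0.177, and the SD of log2 CPM was larger in CDK4KO for 4 of 4. ERN1 (IRE1, ENSG00000178607) had 36.4, 45.6, 41.4 and 54.5 CPM in CDK4KO tumours, against 36.1, 35.9, 41.4 and 40.9 CPM in CDK4WT tumours. CDK4KO replicate 4 was the highest library, the log2 fold change was 0.21 ± 0.11 (SE, adjusted p = 0.476, edgeR), and without that library it was 0.09. EIF2AK3 (PERK, ENSG00000172071) had 24.9, 30.4, 30.9 and 23.4 CPM in CDK4KO tumours, against 22.9, 21.9, 25.8 and 25.7 CPM in CDK4WT tumours, and a log2 fold change of 0.19 ± 0.10 (SE, adjusted p = 0.473, edgeR).

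XBP1 (ENSG00000100219), the transcription factor downstream of IRE1, had 73.5, 82.4, 88.2 and 71.3 CPM in CDK4KO tumours, against 65.1, 70.1, 71.5 and 75.0 CPM in CDK4WT tumours. For both EIF2AK3 and XBP1, CDK4KO replicates 2 and 3 were above every CDK4WT value and CDK4KO replicates 1 and 4 were not. The log2 fold change of XBP1 was 0.16 ± 0.08 (SE), with a 95% interval of -0.01 to 0.33 (adjusted p = 0.405, edgeR). Without CDK4KO replicates 1 and 4 the log2 fold changes were 0.28 for XBP1 and 0.35 for EIF2AK3, with adjusted p of 0.0584 and 0.0569 in edgeR. That fit was chosen after the data were seen and keeps 2 CDK4KO tumours. It leaves out the lower CDK4KO libraries of both genes, which widens the difference by construction.

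ATF6 (ENSG00000118217) had 67.9, 58.5, 58.5 and 74.6 CPM in CDK4KO tumours, against 77.7, 69.6, 75.1 and 68.5 CPM in CDK4WT tumours. CDK4KO replicates 2 and 3 were the lowest libraries, CDK4KO replicate 1 was just below and replicate 4 inside the CDK4WT range, and the log2 fold change was -0.17 ± 0.09 (SE, adjusted p = 0.443, edgeR). Without CDK4KO replicates 1 and 4 it was -0.31 with an adjusted p of 0.0401 in edgeR, a fit with 2 CDK4KO tumours. That fit was chosen after the data were seen. It leaves out the higher CDK4KO libraries of ATF6, which widens the difference by construction. ATF6 lies at chr1:161766294-161964070 on the plus strand (GENCODE 29, hg38), and its neighbours had the same direction. Of the 20 nearest genes in the table, 10 on each side, 19 had a negative log2 fold change, where 6613 of all 13546 genes did. The median of the 20 was -0.19, and ATF6 differed from that median by 0.02. Their median log2 deviation was 0.02, -0.17, -0.26 and 0.04 in CDK4KO replicates 1 to 4, against 0.24, 0.10, 0.18 and 0.01 in CDK4WT replicates 1 to 4. EDEM3, also on chromosome 1, had neighbours with a median log2 fold change of -0.19, of which 17 of 20 were negative, against its own -0.08. ERO1B, the remaining gene of the list on chromosome 1, had neighbours with a median of -0.05, of which 11 of 20 were negative, against its own 0.18. On other chromosomes, the genes with 15 or more of 20 neighbours negative were of both signs. DNAJB11 (-0.06) and DERL2 (-0.07) had the direction of their neighbours, of which 17 of 20 and 15 of 20 were negative. DNAJC3 (0.13), HERPUD1 (0.15) and SEC61A1 (0.05) did not, with 16 of 20, 15 of 20 and 15 of 20 neighbours negative. The part of the neighbourhood in the ATF6 values was not tested.

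Across tumours, the 34 genes did not vary as 1 block. CDK4KO replicate 3 and CDK4WT replicate 4 were each the highest library for 10 genes, CDK4WT replicate 2 was the lowest for 8, and the list averaged a log2 CPM of 6.74 to 6.83 per library. The median r over the 561 pairs of genes was 0.10, given as a description of 8 tumours. CDK4KO replicate 1 was highest in CALR, PDIA6 and ERO1B and lowest in PDIA4, DNAJB11, SDF2L1, MANF and SEC61A1. CDK4KO replicate 4 was highest in ERN1 and lowest in 6 genes, of which 4, EDEM1, DERL1, DERL2 and SELENOK, are ERAD genes and the others are PDIA6 and ERO1A. In a comparison not matched for expression level, spread within a genotype was smaller than that of the table. The median SD of log2 CPM was 0.103 in CDK4KO and 0.083 in CDK4WT, against 0.144 in CDK4KO and 0.103 in CDK4WT over all genes. It was larger in CDK4KO for 19 of 34 genes (55.9%), where 67.5% of all genes had the larger SD in CDK4KO.

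**Figure D4:**
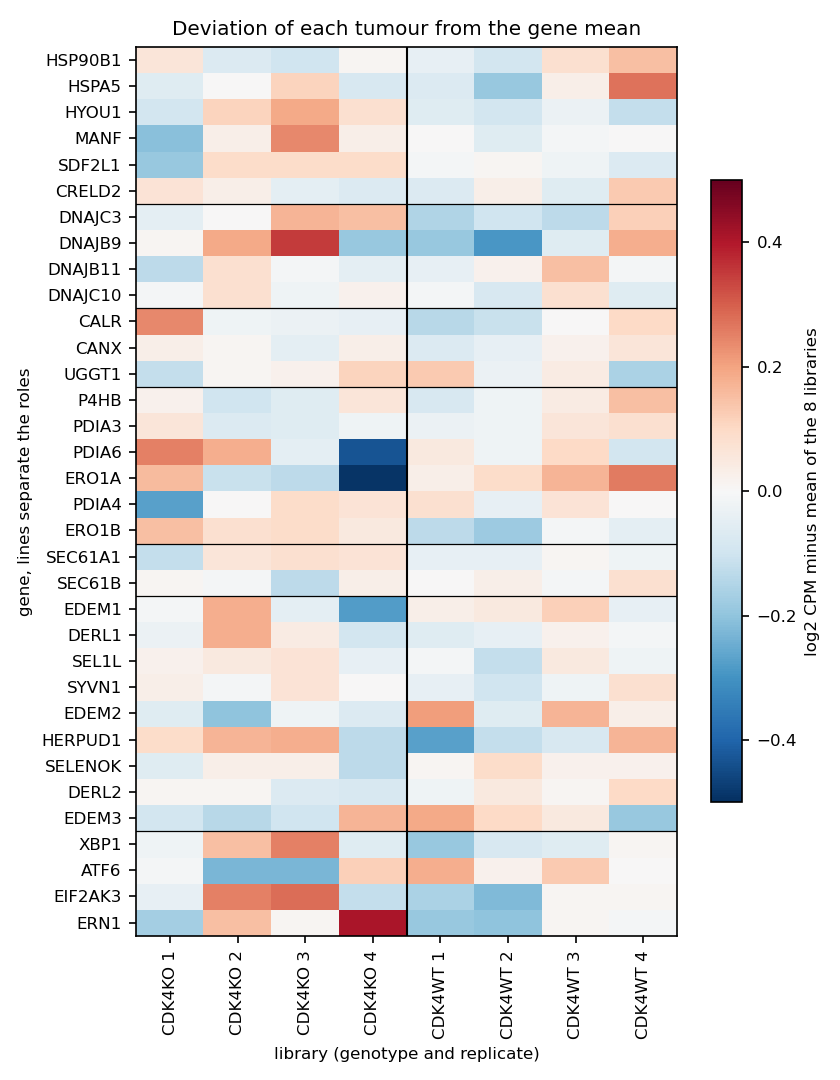
Log2 CPM of each gene in each library minus its mean over the 8 libraries, with CDK4KO libraries left of the vertical line and CDK4WT libraries right of it, and lines between roles. Red is above and blue below the mean. CDK4KO replicate 3 is high for DNAJB9, EIF2AK3, XBP1, MANF and HERPUD1, CDK4WT replicate 4 is high for HSPA5, and CDK4KO replicate 4 is low for ERO1A and PDIA6.

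HSPA5 was taken as the anchor of the response, and the log2 CPM of every other gene was correlated with it over the 8 tumours with exact permutation of 40320 pairings, two-sided. Of the 33 other genes of the list 25 had a positive r (75.8%), against 50.7% of all genes, and the median r was 0.26, against 0.01 over all genes. Of the 33, 15 had r of the same sign in both genotypes. Without CDK4WT replicates 4 and 2, r turned negative for HSP90B1 (-0.41), CANX (-0.29), P4HB (-0.29), PDIA3 (-0.29) and CALR (-0.14), among others. It rose for other genes, such as SEL1L (0.47 to 0.89), MANF (0.40 to 0.72) and HYOU1 (0.07 to 0.64). None of the 33 passed adjustment over 13545 genes, nor did any gene of the table (0.0%), and the smallest adjusted p of the list was 0.807. At an unadjusted p under 0.05, 2 genes were positive, where 3.0% of all genes were, and 1 was negative, where 2.51% of all genes were.

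SYVN1 had the highest r of the list, 0.85 (exact permutation p = 0.00997, adjusted p = 0.807), with Spearman's rho of 0.71 (exact permutation p = 0.0576, adjusted p = 0.971). Without CDK4WT replicates 4 and 2, the libraries farthest from the median of HSPA5, r was 0.55, so the relation rested in part on them, and SYVN1 shares 7.24% of its exon bases with FAU on the same strand. DNAJB9 had an r of 0.77 (exact permutation p = 0.0198, adjusted p = 0.851) and a rho of 0.81 (exact permutation p = 0.0218, adjusted p = 0.961), and r was 0.82 without the same libraries. HERPUD1 had an r of 0.65 (exact permutation p = 0.0711, adjusted p = 0.903) and a rho of 0.81 (exact permutation p = 0.0218, adjusted p = 0.961), and r was 0.59 without them. EDEM3 ran the other way, with an r of -0.70 (exact permutation p = 0.0458, adjusted p = 0.889) and a rho of -0.79 (exact permutation p = 0.0279, adjusted p = 0.971), and r was -0.54 without them.

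The order within a genotype was shared by a few of the induced genes, chosen here after their values were seen. In CDK4KO tumours HSPA5, DNAJB9, HERPUD1, XBP1 and EIF2AK3 all ran highest in replicate 3, then replicate 2, then replicate 1, and lowest in replicate 4. In CDK4WT tumours HSPA5, DNAJB9, HERPUD1 and XBP1 were highest in replicate 4 and next in replicate 3, and EIF2AK3 had these libraries level, at 25.7 and 25.8 CPM. On deviations from the genotype means, r with HSPA5 was 0.94 for SYVN1, 0.89 for DNAJB9, 0.78 for HERPUD1, 0.70 for EIF2AK3 and 0.66 for XBP1, whereas HYOU1 stood at 0.18 and SDF2L1 at -0.05. All 8 points share library scaling, and these values are a description.

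**Figure D5:**
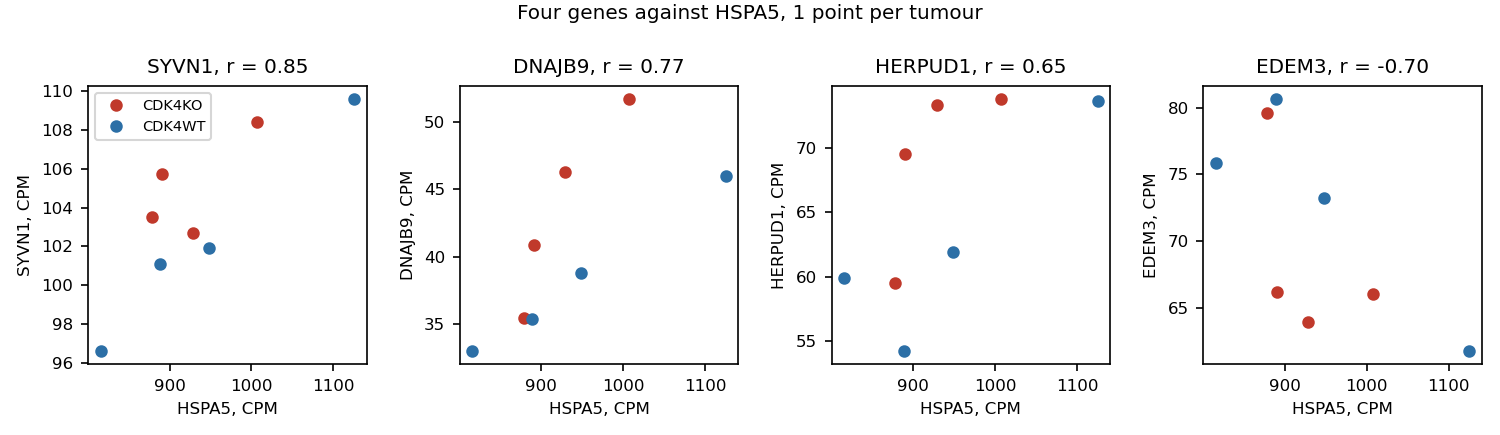
CPM of SYVN1, DNAJB9, HERPUD1 and EDEM3 against CPM of HSPA5, 1 point per tumour, CDK4KO in red and CDK4WT in blue, with Pearson's r of log2 CPM over the 8 tumours. SYVN1, DNAJB9 and HERPUD1 run upward with r of 0.85, 0.77 and 0.65, EDEM3 runs downward with r of -0.70, and CDK4WT replicates 4 and 2 sit at the ends of the HSPA5 axis.

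Genes with a high r with HSPA5 in the whole table, among those with a mean of at least 10 CPM, included genes of no ER role. They were RPL28, a ribosomal protein, the cyclin CCNI and the late endosomal GTPase RAB7A, each at an r of 0.97, and the chromatin protein KANSL1 at 0.96. RAB7A had 216.5, 220.6, 223.5 and 210.2 CPM in CDK4KO tumours, against 211.0, 208.0, 220.2 and 241.5 CPM in CDK4WT tumours, which is the order of HSPA5 in both genotypes. All 4 had an adjusted p of 0.47 (exact permutation) over 13545 genes.

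Genes with and without an ERSE or ERSE-II overlapped in their log2 fold changes. The 10 genes with an ERSE or ERSE-II other than HSPA5 had a median r of 0.36 with HSPA5, 8 of 10 positive, and a median log2 fold change of 0.06, from -0.05 to 0.18. The other 21 genes with a promoter sequence, DNAJC10 with its UPRE core among them, had a median r of 0.22, 15 of 21 positive, and a median log2 fold change of -0.04, from -0.27 to 0.21. No test was made between these groups.

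Related lists gave 0 genes at an adjusted p under 0.05 in edgeR in each of the 9 lists that follow. In the PERK and ATF4 arm, 19 measured of 20, 11 log2 fold changes were positive and 8 negative, with a median of 0.06, and 2 genes were higher and 2 lower at an unadjusted p under 0.05, where 6.64% of all genes were higher and 6.33% lower. DESeq2 and limma voom each called 2, where they called 2.33% and 2.1% of all genes. DDIT4, an inhibitor of mTORC1 that is also in the hypoxia list, had 178.0 to 230.1 CPM in CDK4KO and 236.0 to 403.1 CPM in CDK4WT, a log2 fold change of -0.62 ± 0.15 (SE, adjusted p = 0.143, edgeR). ATF5, a transcription factor translated under stress, had 27.7 to 31.1 CPM in CDK4KO and 23.5 to 26.1 CPM in CDK4WT, a log2 fold change of 0.26 ± 0.07 (SE, adjusted p = 0.168, edgeR). VLDLR, a lipoprotein receptor that ATF4 is known to induce, had 27.8 to 37.2 CPM in CDK4KO and 38.3 to 50.9 CPM in CDK4WT, a log2 fold change of -0.35 ± 0.11 (SE, adjusted p = 0.233, edgeR). These 3 were named for having the smallest p of their list, and their genotypes did not overlap, as for 3.87% of all genes in the higher and 3.81% in the lower direction.

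The rest of the entry and folding route gave small values of both signs. In the list of translocon, signal peptidase and signal recognition particle genes, 8 of 22 were positive (median log2 fold change -0.026), with SPCS1, a signal peptidase subunit, at -0.19 ± 0.06 (SE, adjusted p = 0.192, edgeR) and both subunits of the particle's receptor, SRPRB and SRPRA, at 0.18 and 0.14. For the oligosaccharyltransferase and early glycan trimming 6 of 18 were positive (median -0.061), with its subunits TUSC3 at -0.25 and MAGT1 at -0.26 and the glycan-binding MLEC at 0.15. Among other ER oxidoreductases 7 of 17 measured were positive (median -0.061), with the peroxidase GPX8 at 0.19, the sulfhydryl oxidase QSOX1 at -0.25 and the peroxiredoxin PRDX4 at -0.17. Of the other ERAD factors 13 of 29 were positive (median -0.011), with UBXN8 at -0.23, ERLIN2 at -0.14 and SELENOS at 0.16. At an unadjusted p under 0.05 in edgeR there were 2 translocon, 3 oligosaccharyltransferase, 2 oxidoreductase and 0 ERAD genes, both directions together, where 6.64% of all genes were higher and 6.33% lower. DESeq2 called 1 translocon gene (2.33% of all genes) and limma voom 0 in these 4 lists (2.1% of all genes).

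Transport and stress lists were alike in size. For other Hsp70 cycle and ER stress factors 19 of 34 measured were positive (median 0.021), with SEC24D, a COPII cargo adaptor, at 0.25 ± 0.07 (SE, adjusted p = 0.205, edgeR), CDK5RAP3, a part of the UFM1 ligase, at -0.31 and the calcium-binding RCN2 at -0.26. For KDEL receptors and the COPI and COPII coats 15 of 26 were positive (median 0.014), with the COPI subunit COPA at -0.25 ± 0.07 (SE, adjusted p = 0.184, edgeR), SAR1B at 0.14 and SEC23B at 0.12. Of the ER-phagy receptors 6 of 7 measured were positive (median 0.076), with ATL3 at 0.20, CCPG1 at 0.13 and CALCOCO1 at 0.11. In the cytosolic heat shock list 12 of 20 were positive (median 0.038), with the constitutive Hsp70 HSPA8 at 0.25 ± 0.08 (SE, adjusted p = 0.224, edgeR), the heat shock factor HSF1 at 0.18 and the mitochondrial co-chaperonin HSPE1 at -0.39. At an unadjusted p under 0.05 in edgeR there were 4 Hsp70 cycle, 1 coat, 1 ER-phagy and 3 heat shock genes, both directions together, against the same 6.64% higher and 6.33% lower of all genes. DESeq2 called 1 coat and 1 heat shock gene (2.33% of all genes), and limma voom called 2 Hsp70 cycle genes and 1 coat gene (2.1% of all genes).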

How the data were processed

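Per the labels' protocols, Trizol was used to extract tumour RNA, from which mRNA libraries were made. The deposited values are raw counts, whole reads per Ensembl gene, in 1 table that was not normalized. Cutadapt, STAR 2.7.11a, featureCounts 2.0.4 and DESeq2 1.46.0 on hg38 are named in the submitters' processing notes. An annotation, a strand setting and a step for mouse reads are not named there. Every gene of the table exceeds 1 CPM in at least 4 libraries, and filterByExpr removed 0 genes. CDK4KO columns were matched to replicates 1 to 4 through the library numbers in the labels.

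Genotypes were compared with edgeR 4.0.16 (R 4.3.3) by TMM scaling, robust dispersions and the quasi-likelihood test on all 13546 genes, with Benjamini-Hochberg adjustment and a threshold of 0.05. Alternatives used DESeq2 1.42.0, limma 3.58.1, other scalings and filters, a replicate block and the omission of each library. Log2 CPM has a prior count of 2, and TPM uses the exon lengths of GENCODE 29. Correlations and marker sums were tested by exact permutation (SciPy 1.17.1). The 20 nearest genes were taken by start in GENCODE 29, a description added after the data were seen.

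The members and lists were chosen with earlier results of these data known. Values of every tumour are given for HSPA5, HSP90B1, XBP1, ATF6, ERN1, EIF2AK3, HERPUD1, DNAJB9, ERO1A and SDF2L1 and for the 6 other members with the smallest p (HYOU1, ERO1B, EDEM2, DNAJC3, DERL2 and SELENOK), and from each related list the 3 genes with the smallest p are named. CALR and PDIA6 were given in full after their values were seen. The non-member genes with a mean of at least 10 CPM and the highest r with HSPA5 were named by rule, and 1 of these 5 is not reported here.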

Additional observations from a re-analysis of the deposited data

Results flagged for a closer look

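In 4 of the 68 groups of 4 libraries (34 genes in each genotype) 1 library lay far from the other 3, by Dixon's gap test at its 95% critical value, which chance gives in about 1 in 20 groups. CALR had 1669 CPM in CDK4KO replicate 1, against 1372 to 1389 CPM in the other CDK4KO libraries. SDF2L1 had 6.8 CPM in CDK4KO replicate 1, against 8.27 to 8.3 CPM in the others. SEC61A1 had 294.5 CPM in CDK4KO replicate 1, against 334.9 to 338.7 CPM in the others. EDEM3 had 79.6 CPM in CDK4KO replicate 4, against 63.9 to 66.2 CPM in the others. These 4 values are all in the CDK4KO libraries with the lowest voom weights, 0.382 and 0.424. In the flagged library the 20 nearest genes had a median log2 deviation of 0.14 for CALR and 0.06 for EDEM3. The genes themselves had 0.24 and 0.17. For SDF2L1 and SEC61A1 the neighbours had 0.07 and -0.03, against -0.19 and -0.12 for the genes themselves. The part of the neighbourhood in these values was not tested.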

How the results depend on the processing

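Over all genes, the 8 calls of edgeR became 14 with library size only, 19 with a mean CPM of at least 5, 13 with the replicate block, 315 with DESeq2, 285 with limma voom, and 0 to 183 when 1 library was left out: 183 without CDK4KO replicate 1, 17 without CDK4KO replicate 4, 0 without CDK4KO replicate 2 or CDK4WT replicate 4, and 1 without any other library. Without CDK4KO replicates 1 and 4, chosen after the data were seen, there were 447, with 1 of the 34 genes, ATF6. Under the 17 other settings 0 of the 34 passed. The 4 genes at an unadjusted p under 0.05 became 1 with library size only, 2 with upper-quartile scaling, 1 with the replicate block, 9 with limma voom, 7 without CDK4KO replicates 1 and 4, and 0 to 5 when 1 library was left out (0 without CDK4KO replicate 2 or CDK4WT replicate 3, 1 without CDK4KO replicate 3 or CDK4WT replicate 1 or 2). The median log2 fold change of the list stayed between 0.001 and 0.031. The cause was not tested.

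Of the 34 genes 24 kept the sign of their log2 fold change under all 18 alternatives, and the 10 that did not had main values within 0.07 of 0. With limma voom HSPA5 was 0.04, CRELD2 0.02 and UGGT1 -0.01. Without CDK4KO replicates 1 and 4 HSPA5 was 0.04, CANX -0.01, PDIA4 0.01, PDIA6 0.06, DNAJB11 0.0008 and EDEM1 0.03. Leaving out 1 library, HSPA5 ran from -0.09 to 0.06, CANX from -0.01 to 0.03, PDIA4 from -0.09 to 0.02, PDIA6 from -0.09 to 0.12, MANF from -0.03 to 0.12, CRELD2 from -0.04 to 0.03, EDEM1 from -0.15 to 0.002, DERL1 from -0.004 to 0.09 and UGGT1 from -0.04 to 0.06. Replicate numbers are not stated to pair the samples. The deviations of same-numbered libraries correlated at -0.03, -0.01, 0.0 and 0.19, which cannot show whether the tumours were paired. With 4 libraries a genotype, differences smaller than the interval half-width, 0.17 on the log2 scale at the median, could not be told from 0.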
